A study of Mus musculus with 16 samples.

Results

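The comparison described here set the medial prefrontal cortex of prenatally stressed male mice against that of control males at postnatal day 14 (P14). It was chosen by the sample labels alone and takes 8 of the 16 libraries of the series, PNS_P14 replicates 1 to 4 and Ctrl_P14 replicates 1 to 4. All mice were ICR, an outbred stock, and the groups differ by label only in whether the pregnant dam had been stressed (PNS) or served as control (Ctrl). Poly(A) RNA of the dissected tissue was sequenced in bulk, and the other 8 libraries are the same groups at day 1 (P1). How and when the dams were stressed, and which pups were littermates, is not stated in the sources used here. Of 19014 genes in the P14 table, the 15873 with a mean normalized count of at least 10 were tested.

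The medial prefrontal cortex holds glutamatergic projection neurons in deep and upper layers, GABAergic interneurons, glia and vessels, and in the mouse the days around P14 fall in a period of synapse growth and beginning myelination. Interneurons arise in the medial and caudal ganglionic eminences, and the title of the series names GABAergic populations as its subject. Neurons that fire or receive strong input switch on immediate early genes, a set of transcription factors such as Fos, Egr1 and Nr4a1, followed by effectors such as Arc and by feedback inhibitors of the same signalling.

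No gene passed in limma, edgeR or voom at P14, and DESeq2 called 8 genes. The genes with the smallest p were activity-regulated: Nr4a3 and Fosl2 were higher in every PNS library than in every control, by 55.8% and 48.4% in their group means. Of 22 immediate early transcription factors, 19 had a positive log2 difference, with a median of 0.40 against 0.0015 over all genes. Libraries of a group were split over this list. PNS replicate 3 lay below PNS replicates 1 and 2 in 17 of the 22 genes, and Ctrl replicate 3 above the other controls in 16. The share of all genes with either order was not counted. The PNS order was not particular to this list, since 18 of 19 meningeal fibroblast genes also had it. Of the interneuron lists, pan-GABAergic genes had a median of -0.09 with 9 of 12 negative, and the medial and caudal eminence lists had medians of 0.02 and 0.00. Among their 12, 21 and 17 tested members Tac1 (-0.33) and Crhbp (-0.29) were lower and Reln (0.35) higher at an unadjusted p below 0.05 in limma. At that level 1.4% of all genes were lower and 1.61% higher. Without Ctrl replicate 3 and PNS replicate 4 the Reln difference was 0.16. Most genes were measured tightly, since the 95% confidence interval lay within a 1.5-fold change in either direction for 12402 genes, or 78.1% of those tested.

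Reads recovered per library ranged from 15068575 (Ctrl replicate 3) to 72978561 (Ctrl replicate 1), and were 44350261 to 62620113 in the other controls and 26614045 to 40897034 in PNS. Cortical projection neuron markers (Slc17a7, Tbr1 and Neurod6) summed to between 106591 and 159800.5 normalized counts in the 8 libraries, and 4 Y-linked genes were counted in all of them. PNS replicate 4 lay at -46.9 on the first principal component (29.0% of the variance), where the other 7 lay between -3.05 and 16.1. It also held the highest red blood cell score and the lowest myelin score. Each of the 4 Y-linked genes was lowest in this library, and their sum was 2317 in it against 2994 to 3357 in Ctrl. Ctrl replicate 3, the shallowest library, lay at 31.3 on the next component (18.4%) and had the highest olfactory bulb score. The labels do not say whether libraries came from separate animals or litters, so every p-value reflects the spread among these 8 samples only. Fewer cells of a type and less RNA per cell cannot be told apart in bulk tissue.

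Levels below are normalized read counts, and means are given ± SD (n = 4 libraries a group). Differences are PNS minus Ctrl in log2(value + 1), so the change of a weakly expressed gene is understated. limma called 0 of 15873 genes at an adjusted p below 0.05, which is 0% of those tested, and the smallest adjusted p was 0.209. An unadjusted p below 0.05 was found in 479 genes (3.02%), 256 higher and 223 lower in PNS, where 794 would be expected at that threshold if no gene differed. edgeR and voom on the recovered reads also called 0 genes, with 475 (2.99%, 1.63% higher) and 488 (3.07%, 1.64% higher) at an unadjusted p below 0.05. DESeq2 on the same reads called 4 genes higher and 4 lower (0.0252% in each direction, 0.0504% in all), with 439 (2.77%, 1.24% lower) at an unadjusted p below 0.05. The groups did not overlap in 337 genes (2.12%), of which 167 were higher in PNS (1.05%) and 170 lower (1.07%). The median absolute log2 difference was 0.0764, and 68 genes differed by 1 or more.

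**Figure D1:**
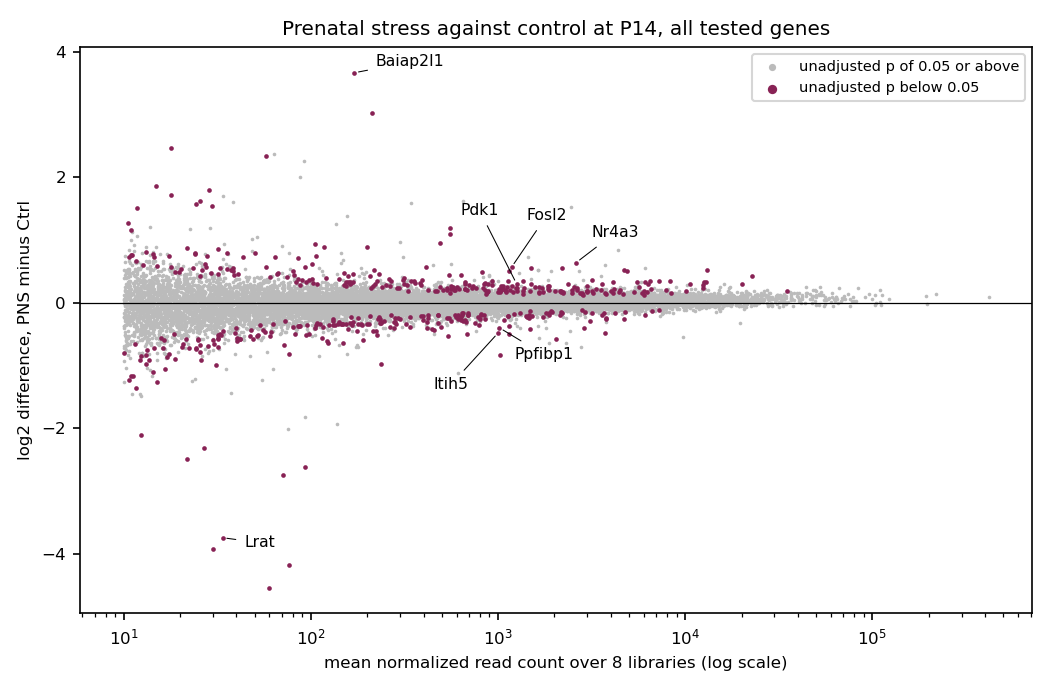
Each point is 1 of the 15873 tested genes, placed by its mean normalized read count over the 8 P14 libraries (log scale) and its log2 difference between prenatal stress and control. Dark points have an unadjusted limma p below 0.05 (479 genes). Named points are genes described in the text. None passed adjustment in limma, and 68 genes lie at 1 or more from the zero line.

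Nr4a3 (ENSMUSG00000028341, GRCm38 chromosome 4, 48045153 to 48086447, plus strand) encodes an orphan nuclear receptor of the NR4A family. It was counted at 2194, 2213, 1866 and 1916 in Ctrl replicates 1 to 4 and, in the same order, at 2837, 3545, 3192 and 3188 in PNS. The groups were well apart: the lowest PNS library lay above the highest control, and no library stood out within its group. The log2 difference was 0.64 ± 0.0832 (SE), with a 95% confidence interval from 0.46 to 0.82, an adjusted p of 0.209 in limma and 1.61e-07 in DESeq2. Over the 19 other settings tried the difference stayed between 0.59 and 0.69, the adjusted p ranged from that of DESeq2 to above 0.99, and it was 0.0823 in limma without PNS replicate 4.

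Fosl2 (ENSMUSG00000029135, chromosome 5, 32135801 to 32157842, plus strand) encodes an AP-1 subunit of the Fos family. Its counts were 1109, 808, 976 and 915 in Ctrl and 1366, 1591, 1545 and 1151 in PNS. The groups did not overlap, although PNS replicate 4 lay close to Ctrl replicate 1. The log2 difference was 0.57 ± 0.120 (limma adjusted p = 0.988, DESeq2 adjusted p = 0.0429), and it ranged from 0.47 to 0.68 over the other settings.

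Promoter windows of the NR4A family and of Fosl2 are printed here because Nr4a3 and Fosl2 hold the smallest p, Nr4a1 and Nr4a2 are the paralogues of Nr4a3, and the cyclic AMP response element (CRE) is a known element of activity-regulated promoters. The windows are RefSeq sequence of GRCm38.p6, from 250 bases before to 50 after the annotated start, read 5′ to 3′ on the gene's strand, with every CRE half-site (TGACG or its reverse complement CGTCA) in capitals. They lie at chr4:48045055-48045354 (plus strand) for Nr4a3, chr15:101266596-101266895 (plus) for Nr4a1, chr2:57123954-57124253 (minus) for Nr4a2 and chr5:32136222-32136521 (plus) for Fosl2.
Nr4a3: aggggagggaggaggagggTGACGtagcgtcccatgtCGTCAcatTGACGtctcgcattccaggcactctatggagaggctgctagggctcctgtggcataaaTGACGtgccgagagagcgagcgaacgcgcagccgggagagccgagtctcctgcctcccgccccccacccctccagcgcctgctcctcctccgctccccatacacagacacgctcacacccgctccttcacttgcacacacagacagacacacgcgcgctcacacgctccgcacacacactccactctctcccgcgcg
Nr4a1: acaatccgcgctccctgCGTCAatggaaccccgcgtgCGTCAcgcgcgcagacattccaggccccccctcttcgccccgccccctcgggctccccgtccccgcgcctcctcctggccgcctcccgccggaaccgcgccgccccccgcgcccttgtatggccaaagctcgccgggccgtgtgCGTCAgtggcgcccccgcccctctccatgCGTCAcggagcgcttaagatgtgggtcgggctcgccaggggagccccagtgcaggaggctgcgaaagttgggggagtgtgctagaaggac
Nr4a2: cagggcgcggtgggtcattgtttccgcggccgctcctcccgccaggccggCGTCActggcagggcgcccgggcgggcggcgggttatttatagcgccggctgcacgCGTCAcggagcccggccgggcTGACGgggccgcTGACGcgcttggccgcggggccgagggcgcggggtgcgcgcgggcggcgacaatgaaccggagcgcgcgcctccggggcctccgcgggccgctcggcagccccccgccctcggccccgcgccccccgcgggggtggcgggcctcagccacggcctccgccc
Fosl2: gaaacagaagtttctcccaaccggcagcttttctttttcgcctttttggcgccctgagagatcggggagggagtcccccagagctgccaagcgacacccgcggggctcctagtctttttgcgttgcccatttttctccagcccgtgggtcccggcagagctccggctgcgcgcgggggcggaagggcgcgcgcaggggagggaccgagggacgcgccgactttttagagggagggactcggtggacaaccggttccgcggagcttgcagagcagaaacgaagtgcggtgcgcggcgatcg
Each NR4A window holds 4 half-sites, which begin at -231, -213, -205 and -147 from the start of Nr4a3. The Fosl2 window holds 0. That window begins at 32136222, inside the gene coordinates given above (from 32135801), so sequence before that gene start was not searched. For Nr4a3 too, the start used for the window lies inside the gene coordinates given above, and the positions count from the window's start site. A full palindrome TGACGTCA, which contains both half-sites overlapping, is in 0 of these 4 windows. For scale, a half-site is in 20.8% and the full site in 1.79% of all 32851 windows of this length. Of the 19 immediate early transcription factors with a window, 15 have a half-site in at least 1 of their windows, against 23.0% of all gene symbols. A match describes these letters only.

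Of the 22 immediate early transcription factors, 7 (Nr4a3 and Fosl2 included) had an unadjusted p below 0.05, all higher in PNS, where 1.61% of all genes did. The groups did not overlap in 2 of the 22, both higher in PNS, against 1.05% of all genes. Fosb, a Fos paralogue, was counted at 270, 309, 628 and 222 in Ctrl and at 968, 986, 405 and 619 in PNS. PNS replicates 1 and 2 were high, while PNS replicate 3 lay below Ctrl replicate 3, so the groups overlapped. Its log2 difference was 1.09 ± 0.345 (limma unadjusted p = 0.00974, adjusted p = 0.988). The genes described next were picked after their values were seen. Egr2, a zinc finger factor, was counted at 276, 256, 477 and 250 in Ctrl and at 1013, 887, 260 and 515 in PNS. Egr1 was counted at 9586, 9998, 14051 and 8889 in Ctrl and at 16474, 17121, 9183 and 19652 in PNS. Fos was counted at 881, 783, 1810 and 837 in Ctrl and at 2697, 2335, 950 and 1344 in PNS. Libraries split the same way for all 3: Ctrl replicate 3 stood above the other controls, PNS replicate 3 stood among the controls, and the rest of PNS was higher than Ctrl replicates 1, 2 and 4. Over the whole list, PNS replicate 3 lay below both PNS replicates 1 and 2 in 17 of 22 genes, and Ctrl replicate 3 above the other controls in 16 of 22. Nr4a3 and Fosl2 did not follow this order, since PNS replicate 3 was as high as its group for both. The PNS order also held in 17 of 20 postsynaptic scaffold genes but in 1 of 77 cytosolic ribosomal protein genes, and its share over all genes was not counted. Nr4a1 averaged 2850 ± 653 in Ctrl and 4563 ± 1958 in PNS, with a log2 difference of 0.60 (95% confidence interval -0.01 to 1.21). Jun (-0.06), Ier5 (-0.05) and Atf3 (-0.15) were the 3 members with a negative difference.

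**Figure D2:**
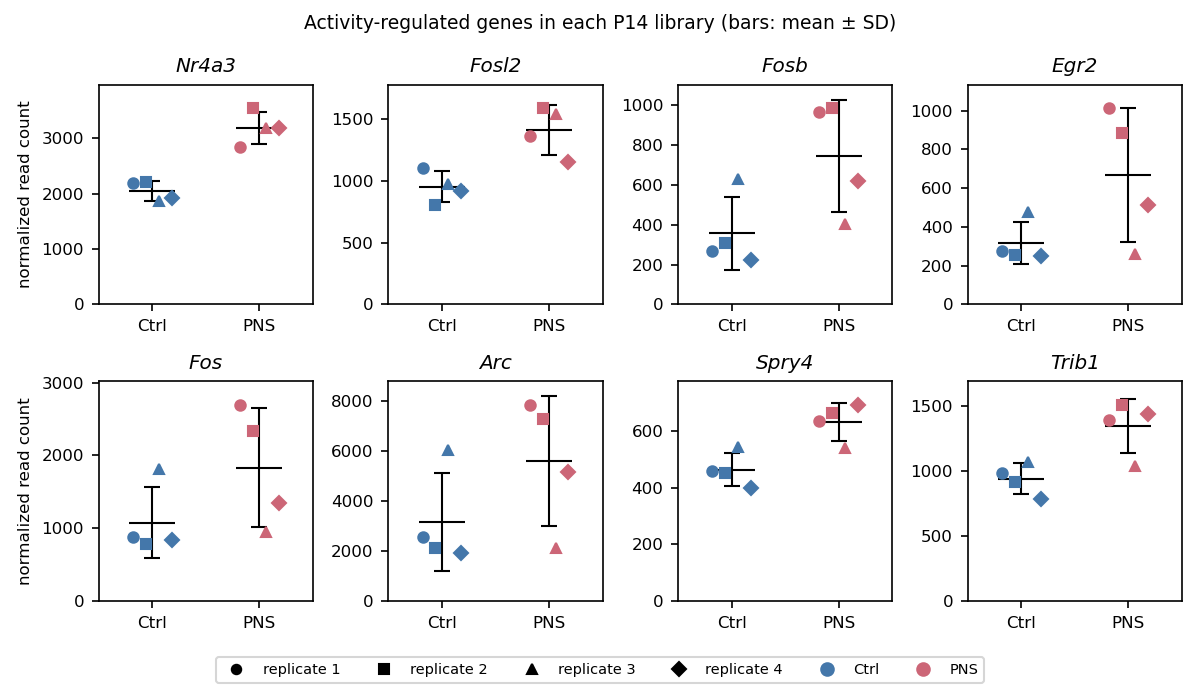
Normalized read counts of 8 activity-regulated genes in the 4 control (Ctrl) and 4 prenatally stressed (PNS) P14 libraries, with symbols for the replicate number and bars for the mean ± SD. Nr4a3 and Fosl2 do not overlap between groups. For the other 6 genes PNS replicate 3 (triangle) lies below Ctrl replicate 3.

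Effectors and feedback inhibitors of activity leaned the same way: 17 of 21 had a positive difference, with a median of 0.20, and 4 of 21 had an unadjusted p below 0.05, all higher in PNS, where 1.61% of all genes did. Leaving out each library in turn moved this median between 0.11 (without Ctrl replicate 4) and 0.28 (without PNS replicate 3). Spry4, an inhibitor of receptor tyrosine kinase and ERK signalling, was counted at 458, 454, 544 and 401 in Ctrl and at 636, 663, 539 and 694 in PNS (0.45 ± 0.110). Trib1, a pseudokinase, was counted at 985, 917, 1068 and 787 in Ctrl and at 1389, 1509, 1038 and 1440 in PNS (0.51 ± 0.127). For both genes PNS replicate 3 lay just below Ctrl replicate 3 and the remaining PNS libraries lay above all controls. Sik1, a salt-inducible kinase that feeds back on CREB targets, averaged 675 ± 106 in Ctrl and 965 ± 230 in PNS. Arc, a synaptic immediate early effector, averaged 3155 ± 1951 and 5597 ± 2596. Its spread within each group was wide. Bdnf, the brain-derived neurotrophic factor, averaged 1147 ± 94.4 and 1268 ± 142, a log2 difference of 0.14 (95% confidence interval -0.06 to 0.34).

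With each library's immediate early score added as a covariate, the median of this list's genes became -0.13 and that of the immediate early list -0.05, which follows in part from the construction of the score. The Nr4a3 difference was 0.69 in that fit and the Fosl2 difference 0.53. Leaving out each library in turn moved the immediate early median between 0.30 and 0.56. Without both Ctrl replicate 3 and PNS replicate 4 it was 0.58.

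Other genes among the 10 with the smallest p toward higher values in PNS came from several functions. Pdk1, a kinase that restrains pyruvate dehydrogenase, was counted at 1055, 1215, 1105 and 1133 in Ctrl and at 1377, 1382, 1479 and 1307 in PNS, without overlap (0.30 ± 0.0660). AC161763.1, annotated as a long intergenic noncoding RNA (ENSMUSG00000115783, chromosome 7, 144914470 to 144914637), was counted at 4012, 4100, 3712 and 3541 in Ctrl and at 4619, 4929, 5662 and 6967 in PNS. Its groups did not overlap and PNS replicate 4 was highest (0.51 ± 0.115, DESeq2 adjusted p = 0.0490). Nfil3, a basic leucine zipper repressor tied to the circadian clock, averaged 270 ± 21.6 in Ctrl and 348 ± 28.7 in PNS without overlap. Rpl34, a large ribosomal subunit protein, averaged 1440 ± 41.9 and 1714 ± 122 without overlap, and copies of this gene in the genome make its count uncertain. Ampd3, an AMP deaminase, averaged 797 ± 86.0 and 974 ± 41.3 without overlap. Itih3, an inter-alpha-trypsin inhibitor heavy chain that binds hyaluronan, averaged 331 ± 59.4 and 496 ± 101 with overlapping groups. None of these passed in limma, where the adjusted p was 0.988 for every gene shown in the plot of genes with the smallest p except Nr4a3.

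Toward lower values in PNS the smallest p belonged to Ppfibp1, a liprin-beta scaffold, counted at 1117, 1179, 1138 and 1187 in Ctrl and at 875, 809, 781 and 1057 in PNS. The groups did not overlap, with PNS replicate 4 nearest to the controls (-0.40 ± 0.0921). Without PNS replicate 4 Ppfibp1 passed in limma (-0.49, adjusted p = 0.0425), and over all settings its adjusted p ranged up to above 0.99. Itih5, another heavy chain of the same family, was counted at 1199, 1166, 1224 and 1057 in Ctrl and at 876, 783, 680 and 1014 in PNS (-0.48 ± 0.113). Zfp9 and Zfp599, zinc finger genes, averaged 928 ± 42.8 and 151 ± 24.5 in Ctrl against 778 ± 34.3 and 96.1 ± 17.1 in PNS, without overlap. Siglech, a microglial and plasmacytoid cell lectin, averaged 258 ± 39.3 and 187 ± 10.5 without overlap. Golm1, a Golgi membrane protein, averaged 531 ± 34.3 and 423 ± 39.0, and Kcnj2, an inward rectifier potassium channel, averaged 248 ± 19.8 and 182 ± 27.5, both without overlap. Tbc1d30, a Rab GTPase-activating protein (-0.41), and Tdp2, which repairs topoisomerase-blocked DNA ends (-0.43), overlapped through PNS replicate 3.

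**Figure D3:**
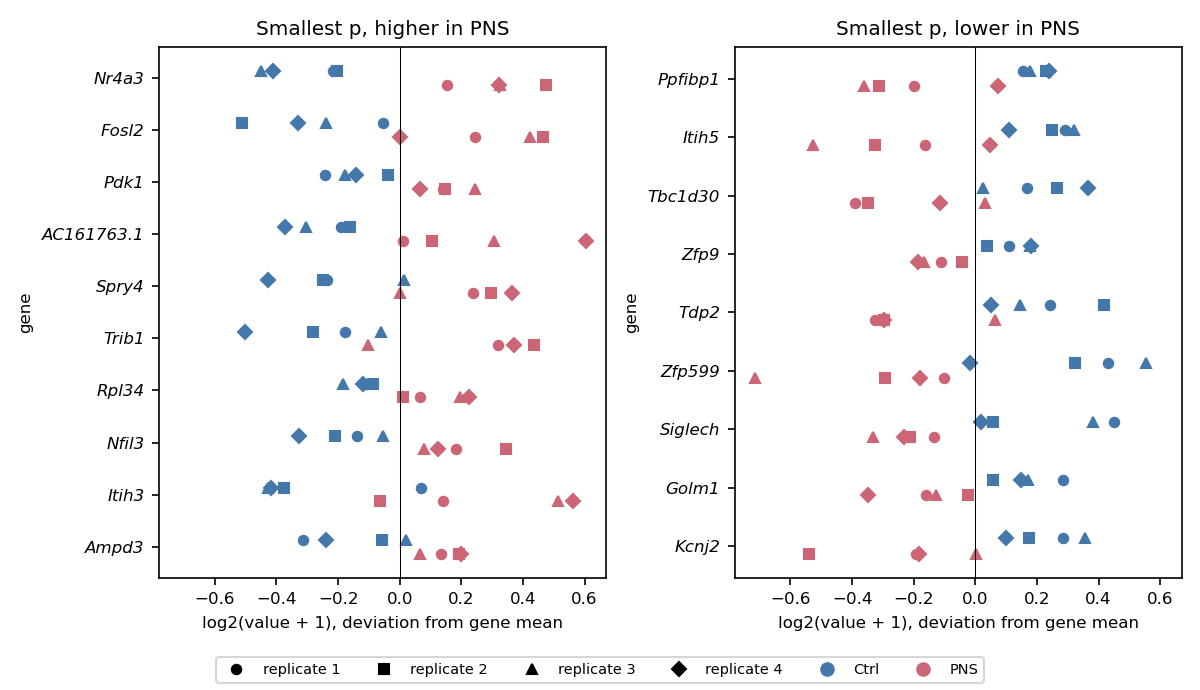
Log2(value + 1) of 19 genes with the smallest p, 10 higher and 9 lower in PNS, as the deviation of each P14 library from the gene's mean over the 8 libraries. Blue points are controls, red points are prenatally stressed, and symbols give the replicate number. For Nr4a3 and Zfp9 the colours do not overlap, and for Ppfibp1 and Itih5 PNS replicate 4 (diamond) lies nearest to the controls.

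The other DESeq2 calls were genes with near-absent and present libraries. Baiap2l1, an actin-bundling adaptor, was counted at 7.93, 9.63, 21.0 and 11.2 in Ctrl and at 445, 577, 7.81 and 289 in PNS (DESeq2 adjusted p = 0.0109). Its level in PNS replicate 3 was that of the controls, and without that library limma called it (adjusted p = 0.000957). Lrat, a retinol acyltransferase, was counted at 86.7, 81.6, 88.8 and 3.20 in Ctrl and at 3.96, 3.72, 2.60 and 0 in PNS (DESeq2 adjusted p = 0.0490). Rpl15-ps2 and Gm10020, annotated as processed pseudogenes, showed the same pattern. Ctrl replicate 4 was at 1.60 and 2.40, the other controls at 72.4 to 84.2 and at 185 to 215, and PNS between 0 and 5.21. Whether the reads of these pseudogenes are separate was not tested. D430036J16Rik, annotated as antisense, was at 35.0 to 65.9 in Ctrl replicates 1 to 3, 7.20 in Ctrl replicate 4 and 2.48 to 7.81 in PNS. In each of these 5 genes 1 library of a group went against its group, and over the settings tried each adjusted p ranged up to above 0.99. Reads of pseudogenes may be shared with their parent genes, and whether counting used strand is not stated in the sources used here.

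Interneuron genes were examined next. Of 12 pan-GABAergic genes 9 had a negative difference (median -0.09), with 0 at an unadjusted p below 0.05. Gad1, which makes GABA, was counted at 6179, 6295, 7167 and 5851 in Ctrl and at 5784, 5582, 6357 and 5322 in PNS. The groups overlapped and Ctrl replicate 3 was highest (-0.14, 95% confidence interval -0.31 to 0.02). Gad2, the other GABA-synthesizing enzyme, averaged 6564 ± 159 in Ctrl and 6172 ± 240 in PNS (-0.09, interval -0.20 to 0.02). Slc32a1, the vesicular GABA transporter, averaged 3709 ± 246 and 3669 ± 349 (-0.02, interval -0.19 to 0.15). In 10 of the 12 pan-GABAergic genes Ctrl replicate 3 stood above the other controls, and this library also had the highest olfactory bulb score. Its bulb and pan-GABAergic scores were 1.25 and 0.32. Ctrl replicate 2, with the next highest bulb score (0.83), had a pan-GABAergic score of -0.08. Whether bulb tissue bears on the GABAergic values was not tested beyond a covariate fit, in which the pan-GABAergic median was -0.01.

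Genes of the medial eminence lineage had 13 of 21 positive differences. Lhx6, its defining transcription factor, averaged 1214 ± 91.5 in Ctrl and 1225 ± 85.3 in PNS (0.01, interval -0.15 to 0.18). Sst, the somatostatin peptide of that lineage, was counted at 9544, 8408, 9335 and 9283 in Ctrl and at 8339, 8593, 11405 and 8761 in PNS. The PNS value of replicate 3 was highest and the groups overlapped (0.01, interval -0.20 to 0.22). Pvalb, the calcium buffer of fast-spiking cells, was still low, at 222 ± 68.8 and 210 ± 81.8, and its interval of -0.76 to 0.53 leaves differences beyond 1.5-fold possible. Tac1, a tachykinin precursor (-0.33), and Crhbp, which binds corticotropin-releasing hormone (-0.29), were the 2 members at an unadjusted p below 0.05, both lower, where 1.4% of all genes were. In the caudal eminence list 9 of 17 differences were positive. Vip, a peptide of that lineage, averaged 1194 ± 243 and 1082 ± 273 (-0.15, interval -0.55 to 0.25).

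Reln, a secreted guidance glycoprotein made by Cajal-Retzius cells and some interneurons, was counted at 6306, 6044, 4875 and 5415 in Ctrl and at 6859, 6479, 6513 and 9130 in PNS. The groups did not overlap and PNS replicate 4 stood well above the rest (0.35 ± 0.118, limma unadjusted p = 0.0139, adjusted p = 0.988). Without Ctrl replicate 3 and PNS replicate 4 the Reln difference was 0.16. GABA receptor and chloride transporter genes had a median of -0.01, with 7 of 20 positive, and Slc12a5, the chloride exporter KCC2, averaged 25997 ± 1040 and 26786 ± 3596 (0.03). Perineuronal net genes had a median of 0.02.

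**Figure D4:**
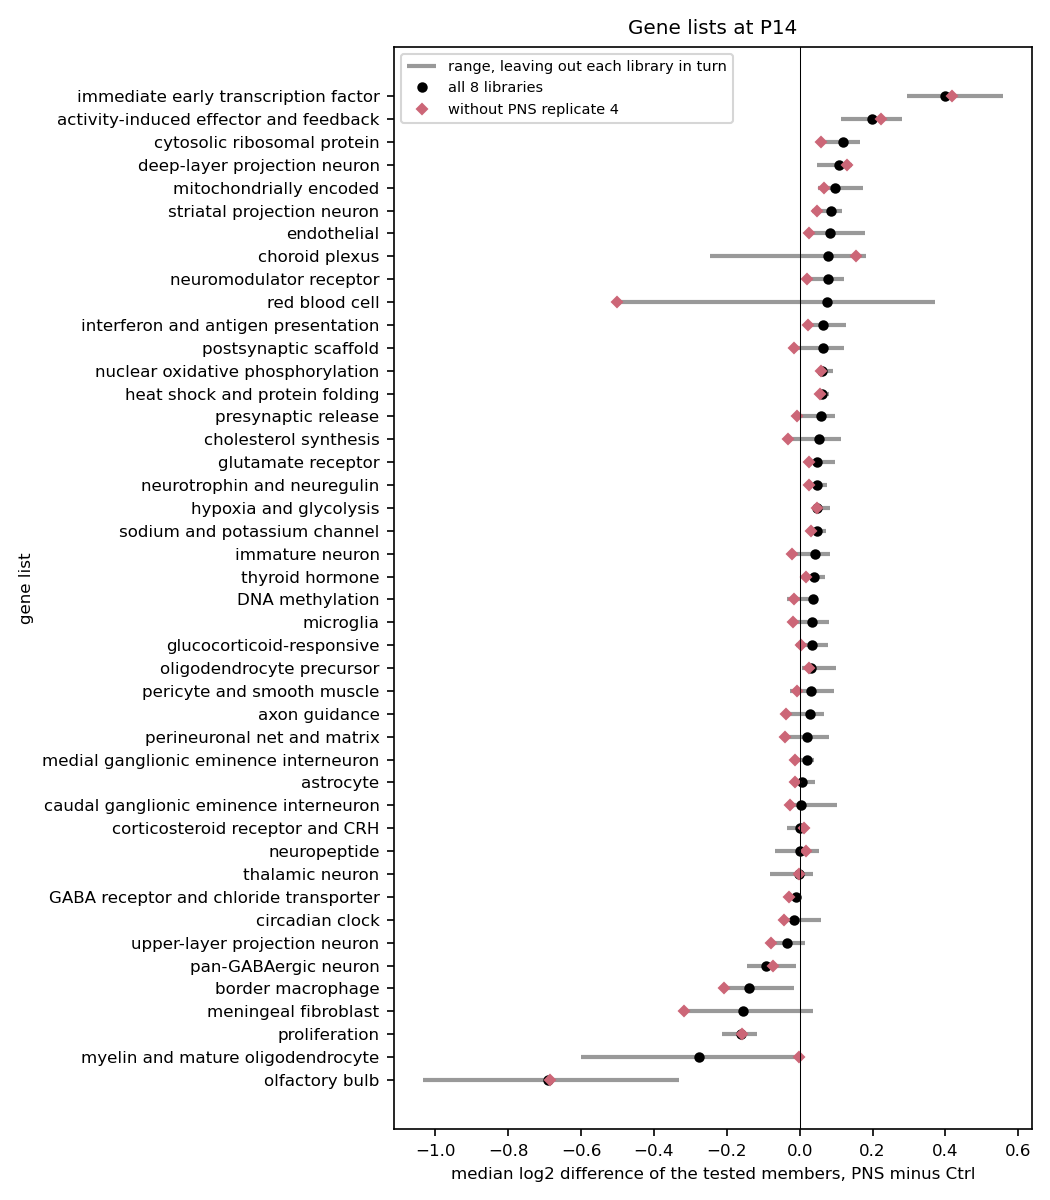
Median log2 difference between prenatal stress and control over the tested members of each of 44 gene lists (black), its range when each P14 library is left out in turn (grey bar) and its value without PNS replicate 4 (red diamond). The immediate early median is 0.40, with a leave-one-out range of 0.30 to 0.56, and the myelin median moves from -0.28 to 0.00 without PNS replicate 4.

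Projection neuron and synapse genes had small medians. Deep-layer genes were positive in 14 of 18 (median 0.11, and 0.05 without PNS replicate 2, whose score of 0.27 stood above -0.05 to 0.00 in the rest of PNS) and upper-layer genes in 5 of 17 (median -0.03). Fezf2, which specifies subcortical projection neurons, averaged 3906 ± 239 in Ctrl and 4308 ± 345 in PNS. Pou3f2, an upper-layer factor, averaged 1212 ± 84.0 and 1046 ± 73.8 (-0.21, unadjusted p = 0.0179 in limma). Postsynaptic scaffold genes were positive in 18 of 20 (median 0.06) and presynaptic release genes in 17 of 22 (median 0.06). In 16 of those 20 and 19 of those 22 genes PNS replicate 4 was the highest of the 8 libraries, and without it the medians were -0.02 and -0.01. Shank1, a postsynaptic scaffold, lay between 24102 and 24759 in Ctrl, and in PNS it was 23360, 25944, 23789 and, in replicate 4, 40137. Grin2b, an NMDA receptor subunit, averaged 11541 ± 1406 and 13460 ± 1230 (0.23). It was the 1 of 21 glutamate receptor genes at an unadjusted limma p below 0.05, where 1.61% of all genes were higher. Without Ctrl replicate 3 and PNS replicate 4 the Grin2b difference was 0.13. Dcx, a microtubule protein of immature neurons, averaged 3647 ± 358 and 3245 ± 276 (-0.17). Proliferation genes were negative in 15 of 16 (median -0.16). Aurkb, a mitotic kinase, was at 25.8, 25.5, 35.0 and 39.2 in Ctrl and at 11.9, 22.3, 23.4 and 21.0 in PNS, low in both groups and without overlap.

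Myelin genes varied widely among libraries of the same group. Mbp, the myelin basic protein, was counted at 26470, 10250, 20475 and 29406 in Ctrl and at 13309, 21984, 27596 and 8193 in PNS. Low and high libraries occurred in both groups, with Ctrl replicate 2 and PNS replicates 1 and 4 low. The Mbp difference was -0.33, with a wide interval from -1.21 to 0.55. Over the list 20 of 25 differences were negative (median -0.28), 0 had an unadjusted p below 0.05, and the median was 0.00 without PNS replicate 4. Oligodendrocyte precursor genes had a median of 0.03.

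Other non-neuronal genes were also examined. Astrocyte genes were positive in 10 of 20 (median 0.01) and Id3, an inhibitor of basic helix-loop-helix factors, averaged 1532 ± 132 in Ctrl and 1310 ± 87.5 in PNS. Microglial genes were positive in 12 of 20, and Siglech, described above, was lower while Tmem119, another microglial gene, averaged 972 ± 39.3 and 1099 ± 114. Endothelial genes were positive in 19 of 24 (median 0.08). Slco1c1, a thyroxine transporter of the blood-brain barrier, was counted at 2638, 2792, 2890 and 2920 in Ctrl and at 3158, 3272, 2985 and 3375 in PNS, without overlap (0.19 ± 0.0589). In 18 of the 24 endothelial genes PNS replicate 4 was the highest library, and the median was 0.03 without it.

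Meningeal fibroblast genes were negative in 19 of 19 (median -0.16), with 0 at an unadjusted p below 0.05. Their scores were -0.12, 0.03, 0.23 and 0.20 in Ctrl and 0.05, -0.12, -0.74 and 0.47 in PNS, so PNS held both the lowest and the highest library. Without PNS replicate 3 the median was 0.04, and without PNS replicate 4 it was -0.32. Olfactory bulb genes were negative in 9 of 10 (median -0.69). Cdhr1, a protocadherin of mitral cells, averaged 799 ± 175 in Ctrl and 564 ± 124 in PNS, and the bulb scores of Ctrl replicates 2 and 3 were 0.83 and 1.25 against -0.56 to -0.16 in the other 6 libraries. Eomes, a transcription factor of mitral and tufted cells at this age, was at 87.2 and 100.5 in those controls and between 2.60 and 7.43 elsewhere. Red blood cell genes were positive in 4 of 5, and their score was 1.61 in PNS replicate 4 against -0.72 to 0.58 in the rest. Their median was 0.08 with all libraries and -0.50 without PNS replicate 4. The part of these tissues in other differences was not tested beyond the covariate fits and the left-out libraries.

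**Figure D5:**
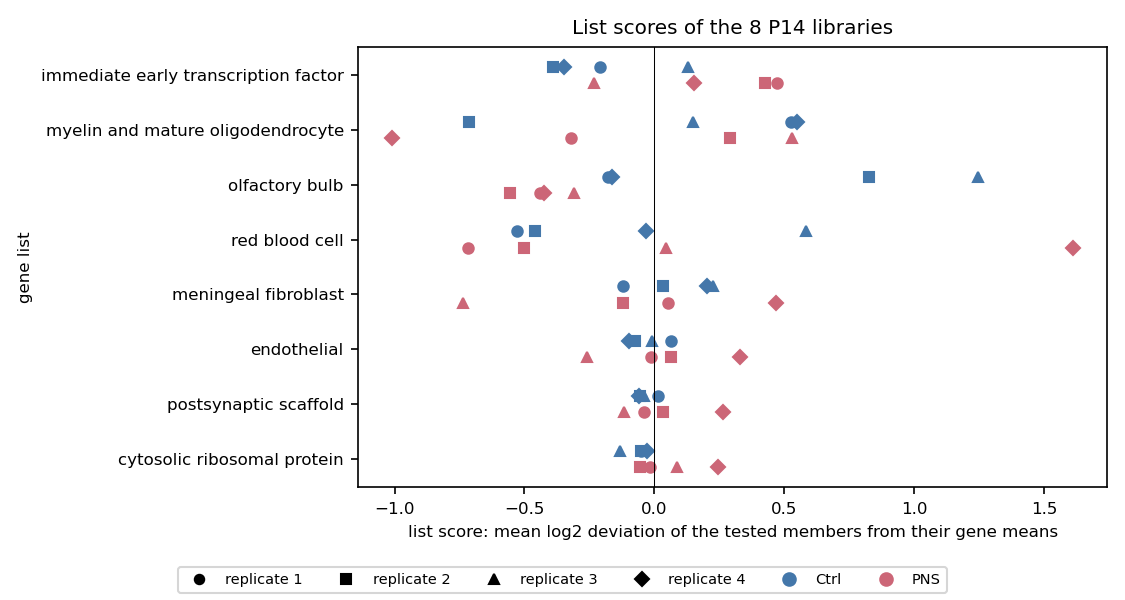
List scores of the 8 P14 libraries, the mean log2 deviation of a list's tested genes from their gene means, with blue for control, red for prenatal stress and symbols for replicates. PNS replicate 4 (red diamond) has a red blood cell score of 1.61 and a myelin score of -1.01, and Ctrl replicates 2 and 3 have olfactory bulb scores of 0.83 and 1.25.

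Stress hormone genes showed small differences. Nr3c1, the glucocorticoid receptor, averaged 2515 ± 192 in Ctrl and 2565 ± 274 in PNS (0.03, interval -0.16 to 0.21), and Fkbp5, its co-chaperone and target, averaged 1014 ± 94.6 and 940 ± 37.2 (-0.10, interval -0.28 to 0.07). Both intervals lie within a 1.5-fold change. Of 22 glucocorticoid-responsive genes 12 were positive (median 0.03). Arl4d, a small GTPase that is in that list, was the 1 member at an unadjusted limma p below 0.05 (0.43). At that level 1.61% of all genes were higher in PNS. With the immediate early score as a covariate Arl4d turned to -0.018 and the list median to -0.14. In 18 of these 22 genes PNS replicate 3 lay below PNS replicates 1 and 2. That order also held in 18 of 19 meningeal fibroblast and 15 of 17 circadian clock genes, but in 1 of 77 cytosolic ribosomal protein genes. Arl4d was at 543, 468, 689 and 449 in Ctrl and at 908, 893, 555 and 582 in PNS. Receptors of corticosteroids and of CRH had a median of 0.00.

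Housekeeping genes leaned slightly upward. Cytosolic ribosomal protein genes were positive in 75 of 77 (median 0.12), where 50.6% of all genes were positive, and 13 of 77 had an unadjusted p below 0.05, all higher, against 1.61% of all genes. In 65 of the 77 PNS replicate 4 was the highest library, and without it the median was 0.06. This library was also highest in 26 of 36 axon guidance genes, but in 1 of 25 myelin genes. Rplp1, an acidic stalk protein, was counted at 9787, 9832, 8463 and 10076 in Ctrl and at 10763, 10442, 11366 and 14665 in PNS. These genes have many pseudogene copies, so their counts are uncertain. Nuclear oxidative phosphorylation genes were positive in 49 of 51 (median 0.06, and 0.06 without PNS replicate 4), with 5 higher at an unadjusted p below 0.05, against 1.61% of all genes. Ndufa2, a complex I subunit, averaged 838 ± 86.9 in Ctrl and 1014 ± 91.1 in PNS (0.28). Cox5a, a cytochrome c oxidase subunit, averaged 2689 ± 79.5 and 2957 ± 141 without overlap (0.14). All 7 of the tested mitochondrially encoded genes were positive, with a median of 0.10.

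Among the remaining lists, interferon and antigen presentation genes were positive in 15 of 23 (median 0.07), with Irf9, a subunit of the interferon-stimulated factor, at 145 ± 5.56 in Ctrl and 182 ± 14.4 in PNS without overlap. Heat shock and folding genes were positive in 23 of 28 (median 0.06), cholesterol synthesis genes in 15 of 21 (0.05) and hypoxia and glycolysis genes, which hold Pdk1, in 12 of 16 (0.05). Slit3, a secreted axon guidance ligand, averaged 1347 ± 100.1 and 1651 ± 171 without overlap (0.29), while its list of 36 guidance genes had a median of 0.03. Circadian clock genes were positive in 6 of 17 (median -0.02), neuromodulator receptors in 20 of 30 (0.08), sodium and potassium channels in 19 of 24 (0.05), neuropeptides in 9 of 17 (0.00) and DNA methylation genes in 7 of 13 (0.04). Immature neuron genes were positive in 13 of 19 (0.04), neurotrophin and neuregulin genes in 7 of 11 (0.05), thyroid hormone genes in 6 of 8 (0.04) and pericyte and smooth muscle genes in 9 of 14 (0.03). Genes of neighbouring tissue were positive in 10 of 16 for striatum (0.09), 4 of 9 for thalamus (0.00) and 4 of 7 for choroid plexus (0.08), and border macrophage genes in 2 of 8 (-0.14). Several of these medians moved when 1 library was left out. Without PNS replicate 4 the median was -0.03 for cholesterol synthesis, -0.02 for immature neuron, -0.04 for axon guidance, -0.02 for DNA methylation and -0.01 for pericyte genes, and it was 0.02 for both neuromodulator receptors and interferon genes. Leaving out each library in turn moved the choroid plexus median between -0.25 and 0.18, the border macrophage median between -0.22 and -0.02 and the circadian clock median between -0.05 and 0.06.

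Whether the stress difference at P14 differed from that at P1 was tested as an interaction over 15502 genes in all 16 libraries. limma called 0 genes (0%), with a smallest adjusted p of 0.479, and 913 (5.89%) had an unadjusted p below 0.05, 362 of them higher at P14 than at P1 (2.34%) and 551 lower (3.55%). edgeR also called 0, with 925 at an unadjusted p below 0.05. Among the 5 named genes of smallest p in each direction, Id3 led the lower side: its difference was -0.22 at P14 and 0.36 at P1, an interaction of -0.58 ± 0.112. Itih5 stood at -0.48 at P14 and 0.38 at P1 (-0.86 ± 0.168), and Plat, the tissue plasminogen activator, at -0.16 and 0.33. Cygb, a globin of fibroblasts and neurons, stood at -0.21 and 0.36, and Kcnj4, an inward rectifier potassium channel, at -0.06 and 0.56. In the other direction Kcnn1, a calcium-activated potassium channel, stood at 0.14 at P14 and -0.39 at P1, Sostdc1, a BMP and Wnt antagonist, at 0.51 and -0.78, Rpl34 at 0.25 and -0.09, Sema3c, a secreted semaphorin, at -0.07 and -0.53, and the noncoding RNA Pantr1 at 0.03 and -0.39. At P1 the summed olfactory bulb markers were 4484, 9853, 6716 and 239 in PNS and 314 to 1300.1 in Ctrl, and meningeal markers were 8556 to 16821 in PNS and 7122 to 9298 in Ctrl. The part of those tissues in the interaction was not tested. Nr4a3 stood at 0.64 at P14 and -0.25 at P1, an interaction of 0.89 ± 0.258 with an adjusted p of 0.742 in limma.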

How the data were processed

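Normalized read counts (signal values) were deposited by the authors in 1 table per age. Per the submitters' processing notes the tools were cutadapt, STAR 2.7.3a, HTSeq and DESeq2 with genome build GRCm38; per the labels' protocols an RNeasy micro kit gave the RNA, and poly(A) libraries were built in-house. The sources used here do not state annotation release, library strand or gene filter. Deposited signal values were whole multiples of the value of 1 read for 99.968% to 100% of positive values per P14 library (tolerance 0.0051), so whole reads were recovered by division for the count models. Of 19014 Ensembl IDs, 18980 matched the GRCm38 reference used for coordinates.

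PNS was compared with Ctrl by limma-trend (limma 3.58.1, R 4.3.3) on log2(value + 1), keeping genes whose mean reached 10, Benjamini-Hochberg adjusted over all genes tested and called below 0.05. The difference between ages was an interaction contrast over 16 libraries. Alternatives were edgeR 4.0.16, DESeq2 1.42.0 and voom on recovered reads, a pseudocount of 5, other filters, a replicate block, covariates and left-out libraries. Every pair of libraries in a group was compared by a chi-square of its reads; at 5.71 to 46.2 per gene, no pair looked like a library deposited more than 1 time. Scripts were tested on simulated data. Depth sets counting precision, and no interval here covers more than the spread between samples.

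Members and the 45 gene lists (877 distinct genes, 841 tested, with 1 list as a check of sex) were chosen with earlier results of these data known. Named were the 10 genes with the smallest p and a mean of at least 50 in each direction with fewer than 5 calls, up to 3 members with the smallest p per list, 5 per direction for the interaction, and Gad1, Gad2, Slc32a1, Lhx6, Sst, Pvalb, Vip, Reln, Nr3c1, Fkbp5, Slc12a5 and Mbp whatever their values, leaving out predicted genes; any other gene was picked after its values were seen. A gene that the rule names is not reported here.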

Additional observations from a re-analysis of the deposited data

Results flagged for a closer look

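Single libraries far from the other 3 of their group were found in 14 of 182 groups of 4 values, where chance gives about 5%. The values were those of named genes, list scores, recovered reads and mitochondrial percent. Many of these genes were named for a small p or a DESeq2 call, so the 5% is no strict background. In Ctrl, Itih3 was 419.55 in replicate 1 (296.67 to 307.61 in the others). Ctrl replicate 4 was far below for Rpl15-ps2 (1.6), Lrat (3.2) and Gm10020 (2.4). Ctrl replicate 1 had the highest DNA methylation score (0.0765) and cholesterol synthesis score (0.2077).

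In PNS, Tdp2 was highest in replicate 3 (467.98) and Sst highest in replicate 3 (11405.05). PNS replicate 4 was lowest for Cygb (1323.17) and highest for Reln (9129.73). It was also highest for the GABA receptor and chloride transporter score (0.0607), the thyroid hormone score (0.1306) and the axon guidance score (0.1965). PNS replicate 2 had the highest deep-layer projection neuron score (0.2715).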

How the results depend on the processing

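limma called 0 genes in either direction with the replicate block, a pseudocount of 5, either filter on low values, all 16 libraries in 1 fit, or the myelin, immediate early or depth covariate, and edgeR and voom called 0. DESeq2 called 4 higher and 4 lower, the olfactory bulb covariate 1 higher, and leaving out Ctrl replicate 3 and PNS replicate 4 together 1 lower; the cause was not tested. Leaving out 1 library gave 0 to 1 higher and 0 to 5 lower calls, with 5 lower without Ctrl replicate 4. The interaction gave 0 to 1 calls without 1 library and 0 under its other settings. Genes lower at an unadjusted p below 0.05 numbered 137 to 347 without 1 library, the extremes being without Ctrl replicate 3 and without PNS replicate 4, against 223. With the replicate block 200 genes were higher and 204 lower at that level. Deviations of same-numbered libraries from their group means correlated at r from -0.163 to 0.032, and those of different-numbered libraries at -0.187 to 0.219. So few values cannot decide whether the numbers pair the libraries. Eomes was reversed to 0.30 with the olfactory bulb covariate and Arl4d to -0.018 with the immediate early covariate. Of the other single-gene values 3035 counted as unchanged, 14 passed the threshold and 40 moved. For genes at an unadjusted limma p below 0.05, unchanged meant the same direction and side of the threshold. For other genes it meant a move smaller than a limit set from the SE, whatever the sign. Small differences such as that of Slc32a1 (-0.06 to 0.03 over the settings) could therefore change sign and count as unchanged. Of the list medians 779 moved by less than the spread between replicates and 31 by more. Olfactory bulb covariate and paired omission were chosen after seeing the data. The shallow Ctrl replicate 3 (15068575 reads) limits the precision of weakly expressed genes.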

Other observations

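A few genes did not pass in limma with all 8 libraries but passed with libraries left out or a covariate added, and they are named here after their values were seen. Dhx57, a DEAH-box helicase family gene, was counted at 2161, 2549, 2404 and 2457 in Ctrl and at 1322, 1341, 1328 and 2777 in PNS. PNS replicates 1 to 3 lay far below all controls and PNS replicate 4 above them, and without PNS replicate 4 the log2 difference was -0.84 (limma adjusted p = 0.000864; 0.00998 without both this library and Ctrl replicate 3). A330040F15Rik was counted at 80.7, 74.2, 63.1 and 59.2 in Ctrl and at 156, 168, 174 and 66.9 in PNS, so PNS replicate 4 again matched the controls. Gm6356 was at 0 in PNS replicates 1, 3 and 4, at 132 in PNS replicate 2 and between 37.4 and 142 in Ctrl. Rnaset2b, a ribonuclease T2 gene with a near-identical copy, was at 2.48 and 1.60 in Ctrl replicates 1 and 4, at 143 and 196 in Ctrl replicates 2 and 3 and between 76.9 and 98.9 in PNS. Gm8822 was at 166, 320, 175 and 13.6 in Ctrl and between 10.4 and 22.3 in PNS.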
